A study of Mus musculus with 6 samples.

Results

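The mitochondrial ribosomal protein genes are 78 of the 54446 genes listed for each library, taken as every gene whose symbol begins with Mrpl or Mrps and a digit, with 5 rows named as pseudogenes left out. Their transcripts were sequenced in stem-like cells of the Lewis line, a lung carcinoma line of the mouse, of wild-type genotype. In the RT-MPs group (3 libraries) the cells were treated for 48 h with RT-MPs, which the labels do not spell out, and in the Control group (3 libraries) they stayed untreated over the same time. Both groups were grown in DMEM with 2% fetal bovine serum. Whether the 3 replicates of a group were separate cultures is not stated, so the p-values below cover the spread between libraries, which may be technical.

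Mitochondria carry their own ribosome, which translates the few respiratory chain proteins encoded in mitochondrial DNA. Its rRNAs are transcribed inside the organelle, whereas its proteins are encoded in the nucleus, made in the cytosol and imported. It descends from a bacterial ribosome, so that many of its proteins have bacterial homologs, and many others were added in the mitochondrial lineage. The large subunit holds the peptidyl transferase centre and the exit tunnel, and the small subunit holds the mRNA and the decoding centre.

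Of the 78 genes 51 encode proteins of the large subunit, 30 of them with a bacterial homolog and 21 specific to mitochondria, and 26 encode proteins of the small subunit, 16 with a bacterial homolog and 10 specific to mitochondria. Mrps30 and Mrps18a were counted with the large subunit, where their proteins sit in spite of the symbol. Mrps36 met the naming rule, but its protein is known as a part of the alpha-ketoglutarate dehydrogenase complex and was kept apart.

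Values are FPKM, fragments per kilobase of gene scaled to the read total of the library, which compares levels per length. The read totals that the values imply lay between 16931450 and 21879150 per library. One library stood apart: RT-MPs replicate 3 correlated with the other 5 at 0.959 to 0.969 over log2(FPKM + 1), whereas the other 10 pairs lay between 0.984 and 0.993. Of 6 epithelial markers 4 stayed under 1 FPKM in every library, with Epcam listed at 0 in all of them, while the keratin gene Krt8 had 143 to 160 FPKM in RT-MPs and 164 to 174 FPKM in Control. Of 5 fibroblast markers 2, the collagen genes Col1a1 and Col1a2, stayed at or near 0 in every library, and 3 were tested. The list summed to 59.9 to 61.1 FPKM in RT-MPs and 59.3 to 61.6 FPKM in Control. Within it Dcn averaged 43.6 ± 1.91 FPKM in RT-MPs and 38.6 ± 0.349 FPKM in Control, Pdgfra 12.6 ± 2.24 FPKM in RT-MPs and 16.2 ± 0.665 FPKM in Control and Lum 4.21 ± 0.252 FPKM in RT-MPs and 5.86 ± 0.581 FPKM in Control (SD, n = 3 each). In all 3 the groups did not overlap, beside 40.0% of all tested genes. Limma called 0 of the 3 with all libraries. Without RT-MPs replicate 3 it called 1 higher and 2 lower, beside 6.26% and 15.1% of all tested genes. Of 9 leukocyte and macrophage markers 8 stayed under 1 FPKM in every library, Ptprc and Tyrobp at or near 0. The 9 summed to 39.2 to 40.4 FPKM in RT-MPs and 28.9 to 33.1 FPKM in Control, nearly all of it Cd68, a lysosomal membrane protein gene that was called higher. The part of these markers in the results was not tested.

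Of the 78 genes, 77 reached a mean of 1 FPKM over the 6 libraries and were tested. Their means ranged from 1.94 FPKM for Mrps25 to 37.2 FPKM for Mrpl34, with a median of 10.9 FPKM, against a median of 7.67 FPKM over the 11915 genes tested. The mean was over 20 FPKM in 16 genes, between 5 and 20 FPKM in 50 and under 5 FPKM in 11. Genes of the large subunit had a median level of 12.6 FPKM and those of the small subunit 8.87 FPKM. The lowest read number of a tested member in any library was 86, in Mrps18c.

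The genes with the highest levels were Mrpl34, Mrps21, Mrpl30, Mrpl12 and Mrpl45. Mrpl34, which encodes a small protein of the large subunit, had 35.2, 30.7 and 54.4 FPKM in RT-MPs and 33.004, 35.4 and 34.6 FPKM in Control. Mrps21, of the small subunit, had 33.2, 32.6 and 51.01 FPKM in RT-MPs and 29.6, 31.96 and 31.6 FPKM in Control. In both genes RT-MPs replicate 3 was far above the other 5 libraries. Mrpl30 had 32.4, 31.1 and 37.4 FPKM in RT-MPs and 34.6, 33.4 and 32.6 FPKM in Control. Mrpl12 encodes the protein of the flexible stalk that binds translation factors, and it is also known to bind the mitochondrial RNA polymerase. It had 31.7, 28.1 and 39.7 FPKM in RT-MPs and 32.8, 34.9 and 32.2 FPKM in Control. In Mrpl34, Mrpl30 and Mrpl12 the groups overlapped. The mean levels of the 5 genes differed by less than the range of the RT-MPs libraries within Mrpl34.

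At the other end stood Mrps25, Mrpl48 and Mrpl47. Mrps25, of the small subunit, had 1.65, 1.84 and 2.59 FPKM in RT-MPs and 1.69, 1.87 and 2.02 FPKM in Control. Mrpl48, of the large subunit, had 2.47, 2.11 and 2.40 FPKM in RT-MPs and 2.08, 2.03 and 1.79 FPKM in Control. Mrpl47, which lies near the exit tunnel, had 2.45, 2.51 and 2.16 FPKM in RT-MPs and 2.48, 3.13 and 3.22 FPKM in Control. The groups of Mrps25 and Mrpl47 overlapped, and in Mrpl48 all RT-MPs libraries were above all Control libraries. Mrpl53 was listed at 0 in all 6 libraries and was not tested. In the annotation 88.0% of its exon bases lie also in Gm42688 on the same strand, which had a mean of 0.211 FPKM.

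The comparison asks how these transcripts differed after treatment with RT-MPs, and 1 gene passed the test. Mrpl42, which encodes a mitochondria-specific protein of the large subunit, had 11.04, 10.3 and 10.6 FPKM in RT-MPs and 13.9, 13.4 and 14.4 FPKM in Control. All 3 treated libraries lay below all 3 untreated ones, at means of 10.7 ± 0.375 FPKM in RT-MPs and 13.9 ± 0.508 FPKM in Control (SD, n = 3 each). The log2 change was −0.35 with an SE of 0.06 (limma, Benjamini-Hochberg adjusted p = 0.0377). The gene lies at chr10:95480805-95501940 (mm10, minus strand) and held 663 to 1062 reads per library. In bulk samples, fewer cells of a type and less RNA per cell cannot be told apart. The call was lost when any single library other than RT-MPs replicate 3 was left out (limma, adjusted p between 0.0703 and 0.216), while the log2 change stayed between −0.38 and −0.33. The call was also lost under 3 other scalings, with no filter on low values and with a term for the replicate number (limma, adjusted p = 0.131 for the last).

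The promoter of Mrpl42 is shown for the called gene, that of Mrps22 because it holds 2 of the motifs searched, and that of Mrpl45 as a gene among the 5 highest changes. Each line gives the 250 bases before the RefSeq start (GRCm38.p6, the assembly that mm10 names), 5′ to 3′ on the strand of the gene, with motif letters in capitals. They lie at chr10:95501950-95502199 on the minus strand (Mrpl42), chr9:98601680-98601929 on the minus strand (Mrps22) and chr11:97315466-97315715 on the plus strand (Mrpl45).
Mrpl42: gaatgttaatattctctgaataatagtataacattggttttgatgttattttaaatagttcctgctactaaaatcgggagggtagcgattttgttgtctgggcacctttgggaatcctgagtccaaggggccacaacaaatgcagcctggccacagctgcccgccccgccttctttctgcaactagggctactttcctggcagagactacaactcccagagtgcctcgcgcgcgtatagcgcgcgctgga
Mrps22: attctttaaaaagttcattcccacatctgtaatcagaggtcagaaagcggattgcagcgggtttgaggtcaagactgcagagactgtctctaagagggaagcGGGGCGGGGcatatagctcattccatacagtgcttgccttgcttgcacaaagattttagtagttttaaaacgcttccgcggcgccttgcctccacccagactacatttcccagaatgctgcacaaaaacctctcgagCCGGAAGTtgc
Mrpl45: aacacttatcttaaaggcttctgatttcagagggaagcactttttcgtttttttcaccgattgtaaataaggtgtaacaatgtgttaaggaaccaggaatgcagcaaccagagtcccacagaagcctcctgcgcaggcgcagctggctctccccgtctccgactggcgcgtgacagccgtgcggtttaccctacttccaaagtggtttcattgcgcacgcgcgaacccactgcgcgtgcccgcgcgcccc

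Beyond Mrpl42 no member was called: 0 of 77 were higher, beside 1.29% of all tested genes, and 1 was lower, beside 2.70%. At an unadjusted p under 0.05 limma had 3 higher and 10 lower, beside 6.37% and 20.9% of all tested genes, and voom on the recovered reads also called 0 higher and 1 lower. In 22 of the 77 the groups did not overlap (28.6%), beside 40.0% of all tested genes. RT-MPs lay above Control in 5 of these (6.49%, beside 9.61%) and below in 17 (22.1%, beside 30.4%). The changes were small, with 57 of the 77 within 0.2 of 0 on the log2 scale, a median SE of 0.09 and extremes of −0.35 and 0.32.

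The members' median log2 change was −0.06, and that of all tested genes was −0.09. The FPKM of RT-MPs replicate 3 summed to 585752, against 296966 and 302593 in RT-MPs replicates 1 and 2 and 302160 to 303798 in Control, so that rescaling to a common sum lowers all genes of that library. The members' median was 0.0357 under median-ratio scaling, 0.0176 under quantile normalization and −0.36 after rescaling to a common sum. All tested genes moved along, to 0.00145, −0.0134 and −0.38. Against the median of all genes the members lay 0.02 to 0.03 higher in these 4 versions, and 0.04 lower when RT-MPs replicate 3 was left out. Together the 78 genes took 0.240%, 0.230% and 0.258% of the implied reads in RT-MPs replicates 1 to 3, against 0.248%, 0.249% and 0.251% in Control replicates 1 to 3. RT-MPs replicates 1 and 2 were below all Control libraries in this share, and RT-MPs replicate 3 was above them.

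**Figure D1:**
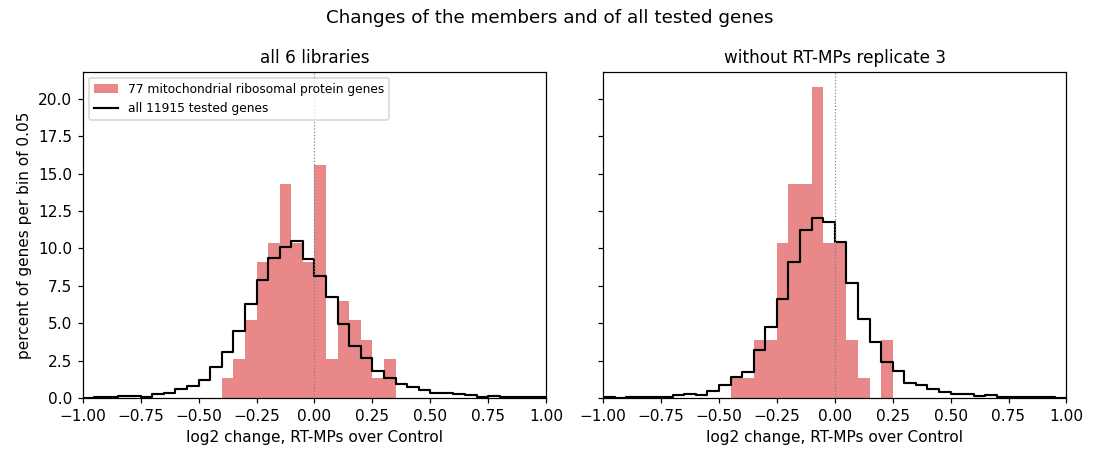
Share of genes per bin of 0.05 in log2 change, RT-MPs over Control, for the 77 tested mitochondrial ribosomal protein genes (bars) and all 11915 tested genes (line), with all 6 libraries (left) and without RT-MPs replicate 3 (right). The medians of members and all genes are −0.06 and −0.09 on the left and −0.10 and −0.06 on the right.

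After Mrpl42, the lowest changes belonged to Mrps2, Mrpl39, Mrps31 and Mrpl1, none of them called. Mrps2, of the small subunit, had 11.2, 10.5 and 8.89 FPKM in RT-MPs and 13.6, 12.1 and 13.4 FPKM in Control, a log2 change of −0.33 (SE 0.09, adjusted p = 0.0922 by limma). Mrps31, a mitochondria-specific protein of the small subunit, had 5.54, 5.10 and 4.79 FPKM in RT-MPs and 6.41, 6.32 and 6.61 FPKM in Control, with a log2 change of −0.28. Mrpl39, of the large subunit, had 8.75, 8.27 and 5.89 FPKM in RT-MPs and 9.62, 8.97 and 10.2 FPKM in Control. In these 3 genes all RT-MPs libraries lay below all Control libraries. Mrpl1, of the stalk beside the site where used tRNA leaves, had 3.83, 2.99 and 1.92 FPKM in RT-MPs and 3.59, 3.54 and 3.77 FPKM in Control. Its groups overlapped and RT-MPs replicate 3 was the lowest library. Without that library the log2 change of Mrpl1 was −0.08, against −0.27 with it, and that of Mrpl39 was −0.16, against −0.31 with it.

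The highest changes belonged to Mrpl33, Mrpl14, Mrps21, Mrpl45 and Mrps10, also without a call. Mrpl33, a small protein of the large subunit, had 6.05, 6.69 and 7.83 FPKM in RT-MPs and 5.33, 5.29 and 5.13 FPKM in Control, a log2 change of 0.32 (SE 0.09, adjusted p = 0.0918 by limma). Mrpl45, which ties the exit of the ribosome to the inner membrane, had 34.5, 32.8 and 35.6 FPKM in RT-MPs and 29.5, 29.9 and 27.2 FPKM in Control, with a log2 change of 0.24. Mrps10, of the small subunit, had 9.81, 9.82 and 10.4 FPKM in RT-MPs and 8.16, 8.67 and 8.25 FPKM in Control, with a log2 change of 0.23. In these 3 genes the groups did not overlap, with or without RT-MPs replicate 3. Relative to the median of all tested genes, Mrpl45 lay 0.33 higher and 0.32 higher after rescaling to a common sum, and Mrps10 lay 0.32 and 0.34 higher. Mrpl14, at the face between the subunits, had 26.01, 25.8 and 42.5 FPKM in RT-MPs and 23.6, 25.95 and 24.1 FPKM in Control. Its log2 change of 0.31 became 0.07 without RT-MPs replicate 3, and that of Mrps21, 0.29, became 0.08.

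**Figure D2:**
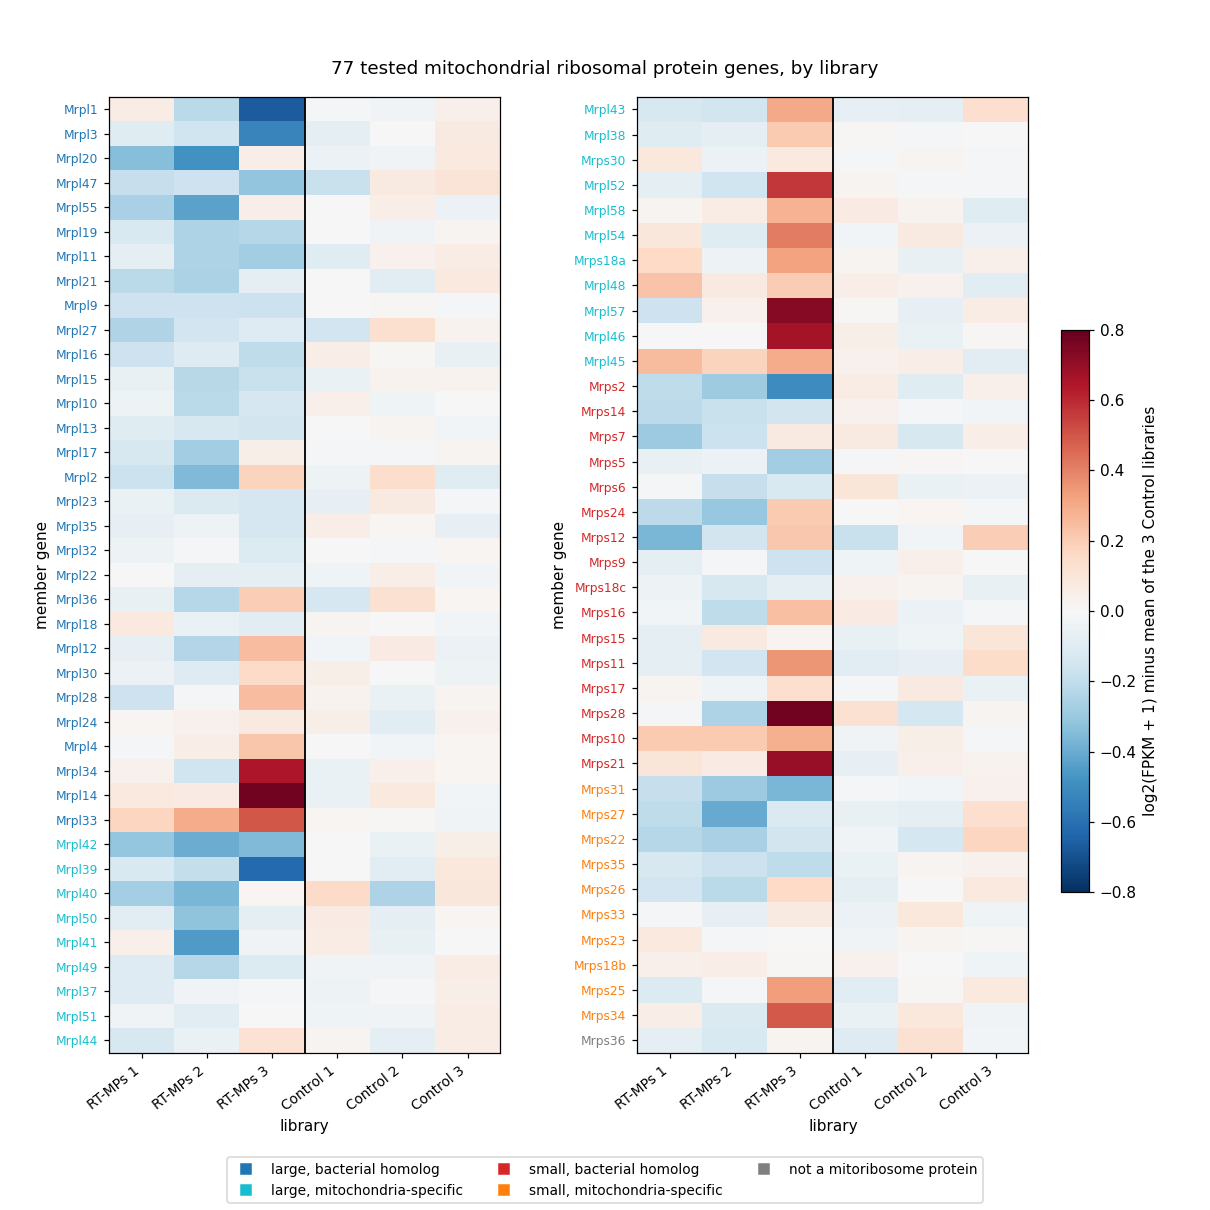
Log2(FPKM + 1) of each tested member in each library minus its mean over the 3 Control libraries, ordered by class and by change, with gene names coloured by class. RT-MPs replicate 3 holds strong colours in both directions, such as Mrps28 and Mrpl14 (high) and Mrpl1 and Mrpl39 (low), and Mrpl42 is low in all 3 RT-MPs libraries.

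Over all 11915 tested genes the median log2 change was −0.09, with 3947 positive and 7968 negative. By class, the 30 large subunit proteins with a bacterial homolog had a median log2 change of −0.12, with 7 positive and 23 negative. The 20 tested mitochondria-specific proteins of the large subunit, Mrpl42 among them, had 0.01, with 11 positive and 9 negative. In the small subunit the 16 with a bacterial homolog had −0.08 and the 10 specific to mitochondria −0.04. Without RT-MPs replicate 3 the medians of the 4 classes were −0.13, −0.08, −0.11 and −0.11, beside −0.06 over all tested genes. The summed level of the large subunit proteins with a bacterial homolog was 432.6, 411.05 and 498.8 FPKM in RT-MPs and 450.5, 461.8 and 453.1 FPKM in Control. In each of the 4 classes RT-MPs replicate 3 had the highest sum of the 6 libraries.

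**Figure D3:**
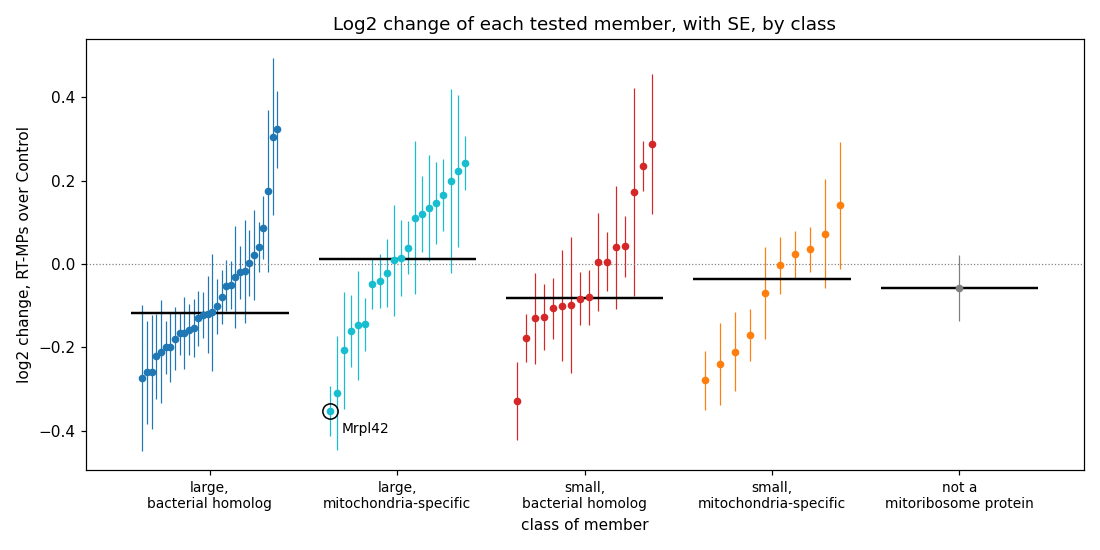
Log2 change of each tested member, RT-MPs over Control, with its SE (bars) by subunit and origin; horizontal lines are class medians and the circle marks the called gene, Mrpl42. The 4 ribosomal classes overlap over most of their range, with medians between −0.12 and 0.01.

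Members with known places in the ribosome were not called. At the base of the stalk, Mrpl10 had 23.4, 20.6 and 21.9 FPKM in RT-MPs and 24.8, 23.5 and 23.99 FPKM in Control. Mrpl11, beside it, had 7.09, 6.16 and 5.998 FPKM in RT-MPs and 6.95, 7.72 and 7.87 FPKM in Control. The log2 changes were −0.13 and −0.20, and that of Mrpl12, which binds to Mrpl10, was −0.02 (SE 0.12) and 0.0825 under median-ratio scaling. Mrpl3, whose bacterial homolog reaches towards the catalytic centre, had 4.68, 4.44 and 3.21 FPKM in RT-MPs and 4.77, 5.08 and 5.38 FPKM in Control. In Mrpl10 and Mrpl3 all RT-MPs libraries were below all Control libraries, and in Mrpl11 the groups overlapped. In the decoding centre, Mrps12 had 5.63, 6.69 and 8.91 FPKM in RT-MPs and 6.54, 7.42 and 8.77 FPKM in Control, a spread as wide within the groups as between them. Mrps22, of the small subunit, had 4.78, 4.66 and 5.11 FPKM in RT-MPs and 5.62, 5.13 and 6.62 FPKM in Control.

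The 3 proteins related to bacterial S18 differed in transcript level. In the classes used here only Mrps18c was counted as having a bacterial homolog, and Mrps18a and Mrps18b were counted as specific to mitochondria. Mrps18b averaged 18.8 ± 0.324 FPKM in RT-MPs and 18.3 ± 0.478 FPKM in Control, Mrps18a averaged 11.3 ± 1.55 FPKM in RT-MPs and 10.1 ± 0.406 FPKM in Control, and Mrps18c averaged 4.68 ± 0.183 FPKM in RT-MPs and 5.01 ± 0.210 FPKM in Control (SD, n = 3 each). The order of the 3 was the same in all 6 libraries. Their log2 changes were 0.04 (b), 0.15 (a) and −0.08 (c), none called, and Mrps18c had 0.0056 under median-ratio scaling. Mrps30, the other large subunit protein with a small subunit symbol, had 0.04, and Mrps36, outside the ribosome, had −0.06. Without RT-MPs replicate 3 the log2 change of Mrps18a was 0.06, and those of Mrps18b and Mrps30 were 0.05 and 0.02.

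The coefficient of variation over 3 libraries had a median of 9.43% in RT-MPs and 4.45% in Control over the 77 genes, and it was larger in RT-MPs in 58 of them. The wider spread was not particular to them. The median SD of log2(FPKM + 1) was 0.125 in RT-MPs and 0.0584 in Control over the 77, beside 0.146 and 0.0559 over all tested genes. RT-MPs replicate 3 had the highest value of the 6 libraries in 33 members (42.9%) and the lowest in 17 (22.1%), against 23.7% and 48.0% of all tested genes. Mrps28, of the small subunit, lay farthest above RT-MPs replicates 1 and 2 in that library, with 7.71, 6.37 and 13.9 FPKM in RT-MPs and 8.51, 6.93 and 7.87 FPKM in Control. It was chosen after its values were seen, and its groups overlapped.

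The deviation of RT-MPs replicate 3 from RT-MPs replicates 1 and 2 went with the length of the coding sequence. Over the 77 members, Spearman's rho between the log2 difference and coding length was −0.44, and over 10299 tested genes with a coding sequence it was −0.42, a description across genes that share libraries. Among the 25 members with the shortest coding sequences, 261 to 480 bases, RT-MPs replicate 3 was higher in 23, with a median log2 difference of 0.26. Among the 25 with the longest, 762 to 1326 bases, it was higher in 12, with a median of −0.0025. For the log2 change of RT-MPs replicates 1 and 2 over Control, rho over the members was −0.03, and over the 10299 genes it was 0.10. For RT-MPs replicate 1 minus RT-MPs replicate 2, rho was −0.10 over the members and −0.25 over the 10299 genes. The part of coding length in the comparison was not tested.

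**Figure D4:**
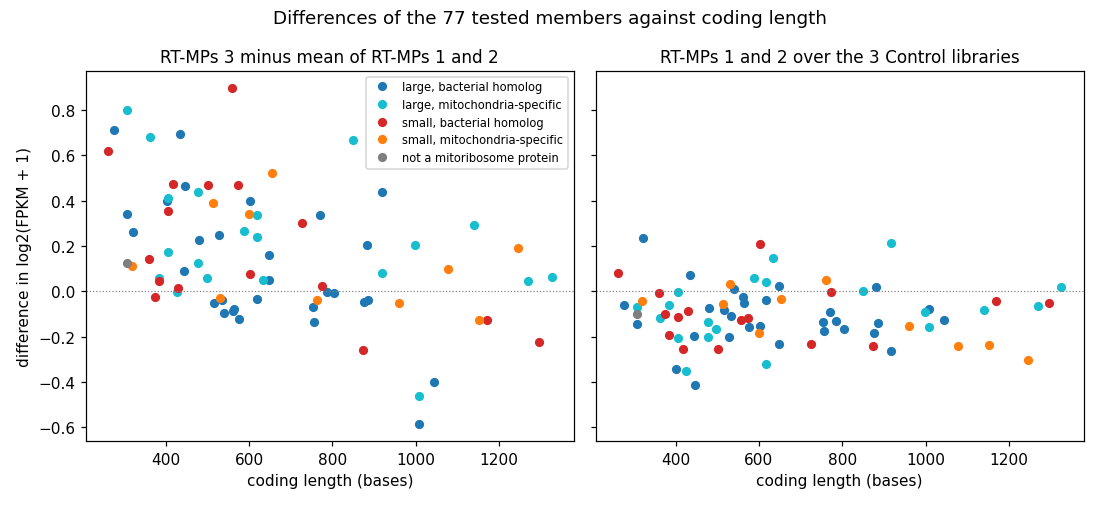
Differences in log2(FPKM + 1) of the 77 tested members against coding length in bases, for RT-MPs replicate 3 minus the mean of RT-MPs replicates 1 and 2 (left) and for RT-MPs replicates 1 and 2 over Control (right); colours are classes. Short members lie mostly above 0 on the left, where rho is −0.44, and rho is −0.03 on the right.

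With RT-MPs replicate 3 left out, 12 members were called, 3 higher and 9 lower, which is 3.90% and 11.7% of the 77, beside 6.26% and 15.1% of all tested genes. The 3 higher were Mrpl33, Mrpl45 and Mrps10, at log2 changes of 0.24, 0.21 and 0.21 and adjusted p of 0.0338, 0.0355 and 0.0259 by limma. The lower ones included Mrpl42, Mrps2 and Mrps31 with −0.35, −0.24 and −0.24. The other 6, named after their values were seen, were Mrpl9, Mrpl20, Mrpl21, Mrpl55, Mrps14 and Mrps24. Mrpl20, which binds rRNA in the large subunit, had 13.7, 12.4 and 18.4 FPKM in RT-MPs and 17.1, 17.3 and 18.7 FPKM in Control, and the 2 remaining RT-MPs libraries were below all Control libraries. Mrpl9, of the large subunit, had 14.8, 14.8 and 14.7 FPKM in RT-MPs and 16.7, 16.8 and 16.6 FPKM in Control, with a log2 change of −0.17 over all 6 libraries. In this reduced set RT-MPs lay above Control without overlap in 6 members (7.79%) and below in 32 (41.6%), beside 16.8% and 38.6% of all tested genes. With arrayWeights, which weights libraries by their spread, 4 members were called higher and 22 lower, beside 10.8% and 27.7% of all tested genes.

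Mitochondrial ribosomal protein genes are known as targets of NRF1 and of the ETS factor GABP, so motifs were searched on both strands of the 250 bases before the start, in the 69 members with a window. The start is that of RefSeq, and some windows lie wholly inside the gene as GENCODE annotates it. Motif carriers such as Mrpl18, Mrpl51 and Mrpl39 are among them, so these windows may not lie upstream of the start in use. The motif CCGGAAGT of ETS factors was in 9 windows (13.0%), against 6.84% of 8509 windows of tested genes and 3.61% of all 20470 windows. In the Mrps22 window it begins 11 bases before the start. The NRF1 motif was in 3 (4.35%), against 1.81% of tested and 0.957% of all windows, and the YY1 motif in 1 (1.45%), against 0.717% and 0.362%. GGGGCGGGG, the motif of SP1, was in 13 (18.8%), against 20.9% and 12.8%, and the E-box CACGTG was in 5 (7.25%), against 8.90% and 6.43%. None of these motifs contains another. Members with CCGGAAGT had a median log2 change of −0.08 and the other members with a window −0.05. None of the motifs was in the Mrpl42 or the Mrpl45 window, which says only that these exact letters are not there. Sites of the same factors with other letters were not searched, so these windows may hold such sites.

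Genes that act with the mitoribosome were mostly not called. Of 6 mitoribosome proteins listed under other symbols 5 were tested and 0 called, with a median log2 change of −0.04. Aurkaip1, of the small subunit, had 20.8, 20.5 and 27.6 FPKM in RT-MPs and 24.5, 27.3 and 24.5 FPKM in Control, with a log2 change of −0.15, and Ptcd3, of the small subunit, had a log2 change of −0.16. Without RT-MPs replicate 3 these were −0.29 and −0.08, and Aurkaip1 was called lower (limma, adjusted p = 0.0203). Of 24 tested assembly and rRNA modification factors 0 were called, 19 had a negative change, beside 7968 of the 11915 tested genes, and the median was −0.11. At an unadjusted p under 0.05 limma had 0 of these 24 higher and 8 lower (33.3%), beside 6.37% and 20.9% of all tested genes. Mrm2, a methyltransferase of the large mitochondrial rRNA, had 1.14, 1.06 and 1.68 FPKM in RT-MPs and 2.17, 2.65 and 2.76 FPKM in Control, a log2 change of −0.63 (SE 0.13, adjusted p = 0.0504 by limma). Voom on the recovered reads called it, at an adjusted p of 0.0446, and without RT-MPs replicate 3 it was 1 of 4 factors (16.7%) called lower by limma, beside 15.1% of all tested genes. Mrm3, another methyltransferase of that rRNA, had 2.53, 1.87 and 1.95 FPKM in RT-MPs and 3.27, 3.49 and 2.86 FPKM in Control. In both methyltransferase genes all RT-MPs libraries were below all Control libraries.

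Of 15 mitochondrial translation factors 0 were called and 14 had a negative change, beside 7968 of the 11915 tested genes. The median was −0.17, beside −0.09 over all tested genes. At an unadjusted p under 0.05 limma had 0 higher and 5 lower (33.3%), beside 6.37% and 20.9% of all tested genes. Without RT-MPs replicate 3 limma called 1 higher and 2 lower (13.3%), beside 6.26% and 15.1% of all tested genes. Mtif2, the initiation factor that brings the first tRNA, had 6.13, 7.0005 and 3.89 FPKM in RT-MPs and 7.75, 7.54 and 7.31 FPKM in Control. Its log2 change was −0.38, and −0.18 without RT-MPs replicate 3. Lrpprc, which protects mitochondrial mRNA, had 9.47, 10.6 and 8.37 FPKM in RT-MPs and 12.2, 11.6 and 11.8 FPKM in Control. It was called lower without RT-MPs replicate 3 (limma, adjusted p = 0.0409). In both genes all RT-MPs libraries were below all Control libraries. Of 9 tested transcription factors and coactivators of mitochondrial biogenesis 0 were called, with 1 higher and 2 lower at an unadjusted p under 0.05. Tfam, which packs mitochondrial DNA and helps to start its transcription, had 5.03, 4.99 and 4.16 FPKM in RT-MPs and 6.75, 6.29 and 5.95 FPKM in Control. Its log2 change was −0.36 (SE 0.09, adjusted p = 0.0656 by limma), and voom called it at an adjusted p of 0.0490. Without RT-MPs replicate 3 limma called Tfam lower (adjusted p = 0.0244). It was the only call among the 9 there (11.1%, beside 15.1% of all tested genes called lower). Esrra, a nuclear receptor, had 8.88, 9.28 and 13.2 FPKM in RT-MPs and 8.42, 9.78 and 7.69 FPKM in Control, with overlapping groups.

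The transcripts that this ribosome translates come from the same fit. Of the 13 mitochondrially encoded protein genes 0 were called higher and 5 lower (38.5%), beside 1.29% and 2.70% of all tested genes, with a median log2 change of −0.79. All RT-MPs libraries lay below all Control libraries in 12 of the 13 (92.3%), beside 30.4% of all tested genes. Without RT-MPs replicate 3 limma called 0 higher and 9 lower (69.2%), beside 6.26% and 15.1% of all tested genes. The mt-Cytb transcript, of complex III, had 1203, 1077 and 949.5 FPKM in RT-MPs and 1881, 1694 and 1988 FPKM in Control, with all RT-MPs libraries below (log2 change −0.79, adjusted p = 0.0293 by limma). Its call was lost with no filter, under quantile normalization, with the replicate block and when RT-MPs replicate 2 or any Control library was left out (limma, adjusted p between 0.0517 and 0.192). Also called were mt-Co3, mt-Atp6, mt-Nd4 and mt-Nd2 (limma, adjusted p = 0.0109, 0.0183, 0.0371 and 0.0478). The call of mt-Co3 held with no filter and under quantile normalization (limma, adjusted p = 0.0229 and 0.00829). It was lost after rescaling to a common sum, with the replicate block and without Control replicate 1 (limma, adjusted p = 0.188, 0.0835 and 0.106). The log2 changes ranged from −1.09 to 0.40 over these 13 genes and from −0.35 to 0.32 over the 77 ribosomal protein genes, and the difference between the lists was not tested. Both ends of the wider range were genes of low level. They were mt-Nd4l, at 1.93 FPKM in RT-MPs and 5.07 FPKM in Control, and mt-Atp8, at 1.85 FPKM in RT-MPs and 1.11 FPKM in Control. The transcript with the highest level of the 13, mt-Co1, averaged 8168 FPKM in RT-MPs and 9120 FPKM in Control. Its log2 change was −0.16, and it was not called.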

How the data were processed

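RNA was sequenced in 3 RT-MPs and 3 Control libraries. The labels' protocols name Trizol for extraction and a stranded KAPA mRNA kit. Per the submitters' processing notes, HISAT2 and mm10 were used; the gene counter, annotation and strand setting are not stated there. The authors deposited FPKM values, 1 table per library; FPKM falls for all genes when a few take more of the reads.

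Gene positions, exon and coding lengths came from GENCODE M21, which held 54409 of the 54446 identifiers and all 78 members; promoters came from RefSeq. FPKM times exon length and a trial total came within 0.1 of whole reads for 98.6% to 98.8% of low values at the totals used as depth. Values were tested as log2(FPKM + 1), which understates changes of low genes, in genes with a mean of at least 1 FPKM, by limma 3.58.1 in R 4.3.3 (eBayes, trend=TRUE, two-sided), adjusted by Benjamini-Hochberg over all tested genes; called means under 0.05. An exact permutation p cannot go below 0.1 here, so none is given. The fit was tested on a single simulated data set, where unchanged genes made up more of the calls than the threshold allows for. A single draw cannot show how often this happens, or whether it holds for these libraries.

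The members and lists were chosen with earlier results of these data known. Named are called members, the 5 highest and 5 lowest changes, the 5 highest and 3 lowest levels, 13 genes whatever their result, and genes of each related list, up to 4 in most lists. Alternatives were pseudocounts of 0.1 and 5, no filter or 5 FPKM, 3 scalings, a term for the replicate number, arrayWeights, trend=FALSE, voom on recovered reads, and leaving out each library.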

Additional observations from a re-analysis of the deposited data

How the results depend on the processing

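All 17 alternatives were run. Mrpl42 was negative in each, and it was called with pseudocounts of 0.1 and 5, at a mean of 5 FPKM, with trend=FALSE, arrayWeights and voom, and without RT-MPs replicate 3. Its adjusted p over the alternatives ranged from 0.00115 to 0.583. Without a filter 11 genes were called higher, 15 lower and 0 members. Median-ratio scaling called 231 higher, 136 lower and 0 members, with a members' median of 0.0357. A common sum (TPM) called 17 higher, 29 lower and 0 members, with a median of −0.36 and 2 members higher in mean. Quantile normalization called 195 higher, 153 lower and 0 members, with a median of 0.0176. ArrayWeights called 1281 higher and 3295 lower, with 4 members higher, 22 lower and 19 higher in mean. Voom called 206 higher and 601 lower. With 1 library left out, genes called higher ranged from 0 to 746 and lower from 0 to 1802, members called higher from 0 to 3 and lower from 0 to 9, members with a higher mean from 15 to 35, members without overlap from 24 to 38, and the median from −0.099 to −0.0257. The upper counts of calls and of members without overlap were without RT-MPs replicate 3. There RT-MPs lay above Control without overlap in 7.79% of members and below in 41.6%, beside 16.8% and 38.6% of all tested genes. With fewer libraries, groups overlap less easily in any gene. Without Control replicate 1 and without Control replicate 3 limma called 0 genes higher, with 1935 and 1839 genes at an unadjusted p under 0.05. The cause was not tested.

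Signs also turned, and the genes concerned under the 3 scalings stayed above the median of all tested genes in each of the 3. Median-ratio scaling gave 0.0825 for Mrpl12, 0.0056 for Mrps18c and 0.0371 for Mrps36, and quantile normalization 0.0035 for Mrpl12, 0.0177 for Mrps18c and 0.0176 for Mrps36. A common sum, which moved the median of all tested genes to −0.38, gave −0.0432 for Mrps10, −0.057 for Mrpl45, −0.0127 for Mrps21, −0.30 for Mrpl30, −0.13 for Mrpl34, −0.17 for Mrps25, −0.0472 for Mrpl48, −0.14 for Mrps18a, −0.26 for Mrps18b, −0.25 for Mrps30 and −0.0461 for Esrra, and these 11 genes lay 0.0764 to 0.366 above that median. ArrayWeights gave 0.0133 for Mrpl1, −0.0468 for Mrpl30 and −0.0971 for Mrps25. With 1 library left out, Mrpl12 ranged from −0.15 to 0.0902, Mrpl30 ranged from −0.0744 to 0.0535, Mrpl34 ranged from −0.0616 to 0.34, Mrps12 ranged from −0.26 to 0.0338, Mrps25 ranged from −0.0576 to 0.16 and Mrps36 from −0.11 to 0.0025.

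The replicate block called 0 genes higher, 0 lower and 0 members, with 2620 genes at an unadjusted p under 0.05. Whether the replicate numbers pair the libraries is not stated. Deviations of same-numbered libraries from their group means correlated at 0.0959, −0.0820 and −0.0288, and not every library correlated best with its own number. With 3 libraries per group and RT-MPs replicate 3 standing apart, these correlations cannot decide whether the libraries were paired. Depth limits the members with few reads most, Mrps18c holding 86 to 115 reads over 1076 exon bases. These are not the members of lowest FPKM, as Mrps25 held 221 to 289 reads over 6576 exon bases.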

Other observations

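Neighbouring genes with a mean of at least 1 FPKM share exon bases with 21 members, in 18 of them from the opposite strand. Whether the counting used strand is not stated, so reads in the shared bases may belong to either gene. In 5 members over 20% of exon bases are shared. They are Mrps25 with Nr2c2 (69.8%), Mrps34 with Mapk8ip3 (63.4%), Mrpl19 with Gcfc2 (36.00%), Mrpl43 with the mitochondrial DNA helicase gene Twnk (33.4%) and Mrpl24 with Rrnad1 (26.3%). Mapk8ip3 had a log2 change of 0.60 where Mrps34 had 0.14, and Twnk had −0.34 where Mrpl43 had 0.01. Mrps11 and Mrpl46 lie on opposite strands of chromosome 7 and share 173 bases. Mrps11 had 3.41, 3.18 and 4.94 FPKM in RT-MPs and 3.40, 3.45 and 4.15 FPKM in Control. Mrpl46 had 4.33, 4.34 and 7.46 FPKM in RT-MPs and 4.50, 4.14 and 4.36 FPKM in Control. Both were highest in RT-MPs replicate 3. These genes were picked for their overlap.

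Of the 5 rows named as pseudogenes, Mrpl48-ps had 1.51, 0.862 and 4.08 FPKM in RT-MPs and 1.37, 1.25 and 1.14 FPKM in Control, highest in RT-MPs replicate 3. Mrpl23-ps1 had 0.709, 1.32 and 1.02 FPKM in RT-MPs and 0.666, 0.917 and 0.893 FPKM in Control. The other 3, named for Mrps36, had means of 0.239, 0.124 and 0 FPKM. Reads of a gene and a near-identical copy can be split between them, so the values of Mrpl48, Mrpl23 and Mrps36 are uncertain to that extent.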
